A study of Mus musculus with 10 samples.

Results

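The genes studied here belong to the calcium, calmodulin and calcineurin pathway and were followed in right atrial RNA-seq of the mouse. The 9 genes, Camk2a, Camk2b, Camk2d, Camk2g, Calm2, Calm3, Ppp3ca, Ppp3cb and Rcan1, were taken by symbol from the deposited table of 23337 genes, and all 9 passed the filter on low counts that left 13084 genes for testing. They were chosen by gene name, and earlier results of these data were known when they were chosen. RNA came from 10 mice, 1 library each, of which 4 carry the control label and 6 the Tbx5 mutant label.

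Calmodulin is the calcium sensor of the cell: it binds calcium when the cytosolic level rises with each beat and then activates its partner enzymes. In heart muscle a main partner is the kinase CaMKII, whose subunits come from the 4 Camk2 genes and which phosphorylates, among others, the calcium release channel and phospholamban. The other main partner is calcineurin, a phosphatase made of a catalytic A subunit (Ppp3ca, Ppp3cb or Ppp3cc) and a regulatory B subunit. It dephosphorylates NFAT transcription factors, and Rcan1 encodes an inhibitor of calcineurin that is itself known as a target of NFAT.

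The genotype of the mutant group is given as removal of TBX5, a T-box transcription factor of the atrium, by a tamoxifen-inducible Cre under the ubiquitous R26 promoter, which acts in all cell types of the atrium and not in cardiomyocytes alone. The other group is labelled Control, and its alleles are not given in the labels. The description of treatment is the same for both groups, tamoxifen into the peritoneum at 0.167 mg per day for 3 days with dissection 1 week later, and the strain is given as mix in all mice. Ages are given as 8 to 10 weeks in one label and as 6 to 8 weeks in another. The comparison asked which genes of the right atrium depend on Tbx5. Nothing in the labels tells littermates or cages apart, and the spread between mice of a group is the error behind each test.

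The targeted gene was checked first. Tbx5 was at 183.9 to 223.7 CPM in the 4 control mice, where CPM is the count scaled to a common library size, and at 274.5 to 473.9 CPM in the 6 mice labelled Tbx5 mutant. It was thus higher, not lower, in 6 of 6 mice labelled Tbx5 mutant (log2 fold change 0.94 ± 0.15 SE, adjusted p = 0.000496, edgeR's quasi-likelihood test). The count covers the whole gene, so it does not tell transcripts with exon 3 from those without it, and all directions below follow the labels. Libraries held 5703775 to 7095141 counts, and mutant M3 stood apart with 38.9% of its counts from the ribosomal RNA precursor gene Rn45s, against 0.268% to 1.49% in the other 9 libraries. Reads of the sex-linked genes Xist and Ddx3y went against the labelled sex in all 4 control mice and with it in all 6 mice labelled Tbx5 mutant. Values within a labelled sex thus compare mice by label only, and there group and sex by reads cannot be told apart.

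Of the 9 members, 5 passed an adjusted p of 0.05 between the labelled groups, and their directions were mixed. Camk2a, Camk2d and Ppp3cb fell in the mice labelled Tbx5 mutant, and Calm3 and Rcan1 rose. Thus 3 of 9 members were lower, against 15.0% of all genes tested, and 2 of 9 were higher, against 16.3% of all genes tested. Genes were called when the fold change was also over 1.5 and the signal that the authors normalized averaged over 1 in the control mice. By that rule 1 member, Camk2a, was called lower beside 7.16% of all genes tested, and 1 member, Rcan1, was called higher beside 8.50%. The median log2 fold change of the 9 members was -0.063, and that of all genes tested was -0.0050. Since the atrium was sequenced as bulk tissue, fewer cells of a type and less RNA per cell cannot be told apart in any of these values.

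**Figure D1:**
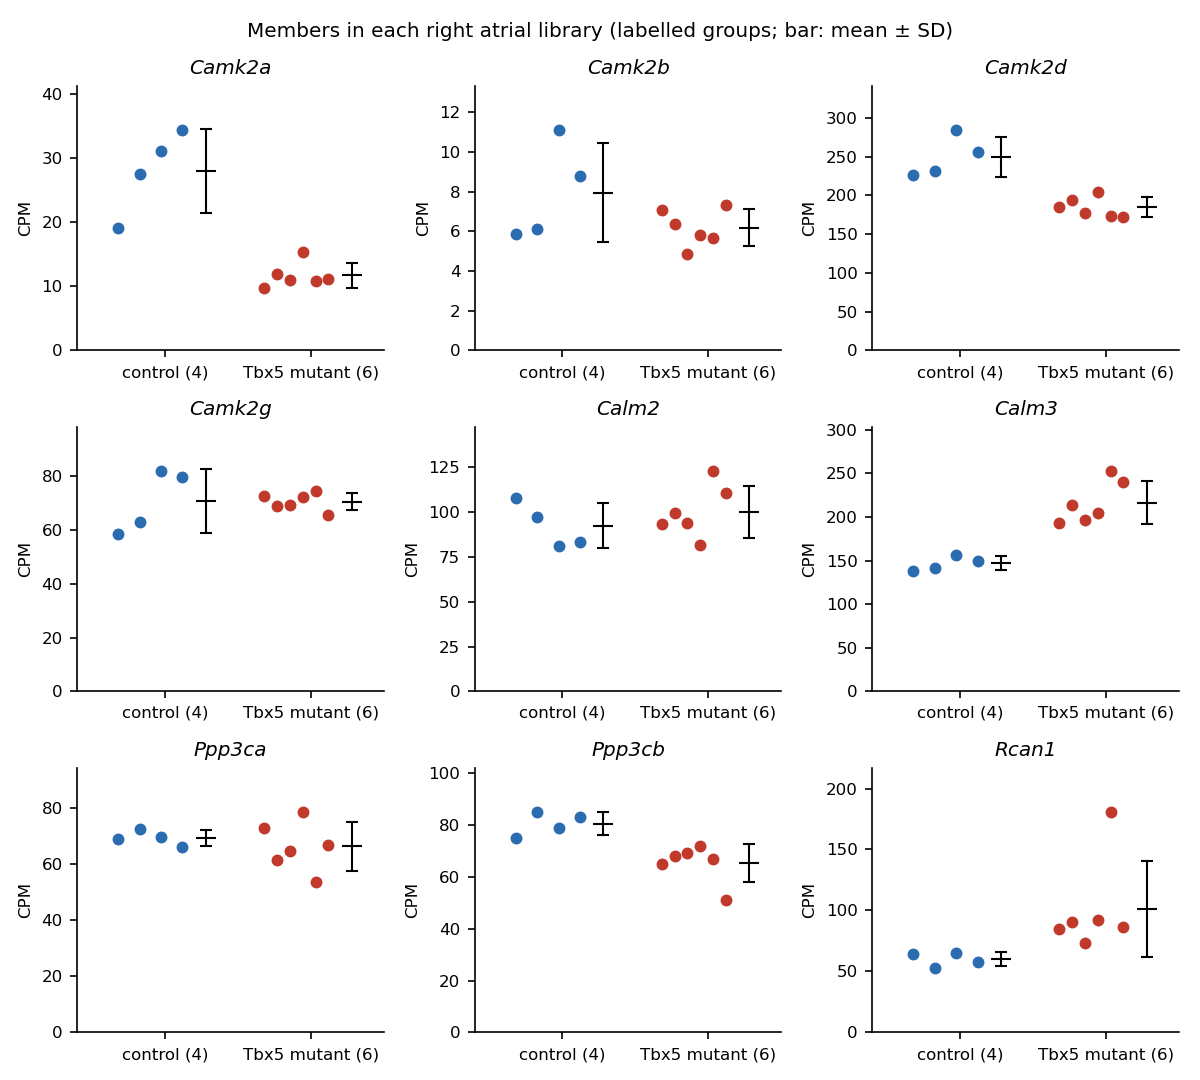
Level of each member in every library. The vertical axes are CPM and start at 0, each point is 1 mouse (blue for the 4 labelled control, in the order M1, M2, F1, F2, and red for the 6 labelled Tbx5 mutant, in the order F1, F2, F3, M1, M2, M3), and the bar gives the mean with the SD. The groups are apart for Camk2a, Camk2d, Calm3, Ppp3cb and Rcan1, and overlap for Camk2b, Camk2g, Calm2 and Ppp3ca. The share of all genes tested whose groups are apart was not computed, so this split has no background beside it. Rcan1 in mutant M2, at 181 CPM, lies above every other mouse.

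Calm2 and Calm3 encode the same calmodulin protein by different messenger RNAs. Calm3 (ENSMUSG00000019370.10, chromosome 7, 16915379 to 16924114, reverse strand, GENCODE M21 on GRCm38) was at 138 CPM in control M1, 142 CPM in M2, 156 CPM in F1 and 149.8 CPM in F2. In the 6 mice labelled Tbx5 mutant it had a lowest value of 193 CPM, a median of 209 CPM and a highest value of 252 CPM. Every mouse labelled Tbx5 mutant lay above every control mouse (two-sided exact permutation test of the mean log2 CPM, p = 0.00952, the smallest that 4 mice against 6 allow). Calm3 rose from 147 ± 8.04 CPM (SD, n = 4) to 216 ± 24.3 CPM (SD, n = 6), a log2 fold change of 0.56 ± 0.097 SE with an adjusted p of 0.000788 by edgeR. The 1.48-fold rise lay just under the fold of 1.5 asked of a called gene. It went past that fold, with log2 fold changes of 0.59 to 0.60, when control F1 or mutant F1, F3 or M1 was left out.

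The bases before the Calm3 start are shown because Calm3 was the member with the smallest adjusted p among those that rose. Sequence is from RefSeq on GRCm38.p6, read 5′ to 3′ on the strand of the gene, from the 250 bases before the listed start, and leaves out the 82 bases next to the start that GENCODE M21 places in an exon of Calm3-201. Capitals mark matches on either strand to AGGTGT, the core that T-box factors bind, to GGAAA, the core that NFAT factors bind, or to TGACGTCA, the full cAMP response element. These motifs can share an end base with each other, and no match shown here did so. Of 32851 promoter windows of the same 250 bases, 11.8% held AGGTGT, 55.6% held GGAAA and 1.55% held TGACGTCA. Among the members, 6 windows of 5 of the 9 were searched, those of Calm3, Camk2b, Camk2d, Ppp3cb and Rcan1. Of these windows 3 held AGGTGT, 4 held GGAAA and 1 held TGACGTCA. No window of Camk2a, Camk2g, Calm2 or Ppp3ca was searched, so these counts say nothing of those members. A match is a description of letters and not a binding site. The Calm3 window held 1 GGAAA, at 192 bases before the start, and no AGGTGT.
Calm3, chr7:16924115-16924282 (reverse strand): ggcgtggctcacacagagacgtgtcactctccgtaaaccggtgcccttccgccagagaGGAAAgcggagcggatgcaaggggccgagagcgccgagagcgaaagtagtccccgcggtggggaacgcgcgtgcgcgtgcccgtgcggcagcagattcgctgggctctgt

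Calm2 (ENSMUSG00000036438.13, chromosome 17, 87433412 to 87446935, reverse strand) was at 81.4 to 108 CPM in the control mice and at 81.6 to 123 CPM in the mice labelled Tbx5 mutant. The ranges overlapped over nearly their whole length. Its log2 fold change of 0.11 ± 0.12 SE did not pass the test (adjusted p = 0.493, edgeR), and the 95% interval ran from -0.14 to 0.37, so that a rise of the size seen in Calm3 lay outside it. Reads of 50 bases can fit processed copies of these genes elsewhere in the genome. Of the 50-base stretches, 12.7% of those of Calm2 and 2.77% of those of Calm3 also occur in another annotated gene. How reads from these stretches were counted is not known, and neither is the size of any error in the counts.

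Levels of different genes were set side by side per kilobase of the longest annotated transcript, although the transcripts in use are not known. On that scale Calm2 was at 76.8 ± 10.4 and Calm3 at 64.0 ± 3.51 CPM per kb in the control mice (SD, n = 4). In the Tbx5 mutant group Calm3 had the higher mean, 94.5 ± 10.6 CPM per kb, before Calm2 at 83.2 ± 12.1 CPM per kb (SD, n = 6). The ranges of Calm2 and Calm3 overlapped in both groups, so their order is not separated by the spread between mice. Read as a ratio of counts within each library, there were 1.28 to 1.92 Calm3 counts for each Calm2 count in the control mice and 2.05 to 2.50 in the Tbx5 mutant group, with no overlap, as a description with no test.

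CaMKII delta is the main CaMKII of heart muscle, and Camk2d (ENSMUSG00000053819.16, chromosome 3, 126596302 to 126846326, forward strand) was the most abundant of the 4 Camk2 genes in every library. It was at 227 CPM in control M1, 232 CPM in M2, 284 CPM in F1 and 256 CPM in F2. In the mice labelled Tbx5 mutant the lowest value was 173 CPM, the median 181 CPM and the highest 205 CPM. All 6 mice labelled Tbx5 mutant lay below all 4 control mice. Camk2d fell from 250 ± 26.3 CPM (SD, n = 4) to 185 ± 12.9 CPM (SD, n = 6), that is to 73.9% of the control level, with a log2 fold change of -0.44 ± 0.091 SE and an adjusted p of 0.00285 by edgeR. The fall did not reach the fold of 1.5. It kept its adjusted p under 0.05 with each library left out in turn, with log2 fold changes from -0.47 to -0.37. Between mice labelled male alone it did not pass (log2 fold change -0.32, adjusted p = 0.172, 2 control mice against 3).

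The window before the listed Camk2d start is shown because Camk2d makes up most of the CaMKII counts and fell in every mouse labelled Tbx5 mutant. Capitals are as above. It held 1 AGGTGT, at 50 bases before the start, and 1 GGAAA on the opposite strand, at 192 bases before the start. GENCODE M21 places no exon in it but starts the gene at 126596302, so the window lies inside the gene by that annotation.
Camk2d, chr3:126596701-126596950 (forward strand): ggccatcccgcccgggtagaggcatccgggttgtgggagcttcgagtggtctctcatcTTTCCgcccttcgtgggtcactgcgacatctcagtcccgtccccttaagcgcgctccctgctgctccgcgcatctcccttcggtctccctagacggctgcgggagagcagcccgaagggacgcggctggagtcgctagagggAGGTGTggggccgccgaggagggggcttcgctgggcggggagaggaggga

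Camk2g (ENSMUSG00000021820.18, chromosome 14, 20734875 to 20794088, reverse strand) encodes CaMKII gamma, the second CaMKII of the heart. It was at 58.5 CPM in control M1, 63.1 CPM in M2, 82.0 CPM in F1 and 80.0 CPM in F2, and at 65.5 to 74.7 CPM in the mice labelled Tbx5 mutant. The mutant values all lay inside the control range. The log2 fold change was -0.0040 ± 0.10 SE (adjusted p = 0.981, edgeR), with a 95% interval from -0.22 to 0.21, which leaves out a fall of the size seen in Camk2d. Its sign was not fixed, since it turned positive under 16 of the 25 other fits tried.

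Camk2b (ENSMUSG00000057897.14, chromosome 11, 5969644 to 6066362, reverse strand), which encodes CaMKII beta, was the lowest of the 9 genes, with 27 to 71 counts per library. It was at 5.85 to 11.1 CPM in the control mice and at 4.87 to 7.34 CPM in the mice labelled Tbx5 mutant, and 3 of the 6 lay below all control mice. The log2 fold change of -0.37 ± 0.20 SE did not pass (adjusted p = 0.166, edgeR). Its 95% interval ran from -0.80 to 0.052.

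Camk2a (ENSMUSG00000024617.16, chromosome 18, 60925618 to 60988152, forward strand) encodes CaMKII alpha, best known from neurons. It showed the largest change of the 9 genes. It was at 19.1 CPM in control M1, 27.4 CPM in M2, 31.0 CPM in F1 and 34.3 CPM in F2, and the mice labelled Tbx5 mutant had a lowest value of 9.76 CPM, a median of 11.1 CPM and a highest value of 15.4 CPM. The groups did not overlap, and the highest mutant mouse lay below the lowest control mouse. Camk2a fell from 28.0 ± 6.54 CPM (SD, n = 4) to 11.7 ± 1.96 CPM (SD, n = 6), which is 41.7% of the control level in the fit, with a log2 fold change of -1.26 ± 0.16 SE and an adjusted p of 8.5e-05 by edgeR. It was called lower under all 25 other fits tried, with log2 fold changes from -1.58 between mice labelled female to -0.89 between mice labelled male.

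Because Camk2a is a neuronal gene in most textbooks, the markers of neurons and Schwann cells were read beside it. The summed level of the 10 listed markers was 44.6 to 58.2 CPM in the control mice and 23.1 to 26.7 CPM in the mice labelled Tbx5 mutant. Of the 5 markers that could be tested, 1 fell and 4 did not pass, and the one that fell was Dbh, the enzyme that makes noradrenaline, at 32.2 to 40.5 CPM against 9.30 to 12.0 CPM. The other 9 markers summed to 12.4 to 18.0 CPM in the control mice and to 12.2 to 17.4 CPM in the Tbx5 mutant group, so that without Dbh the groups overlapped. Snap25, which marks nerve endings, was under 0.3 CPM in every library. The part of nerve cells in the fall of Camk2a was not tested beyond these values.

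**Figure D2:**
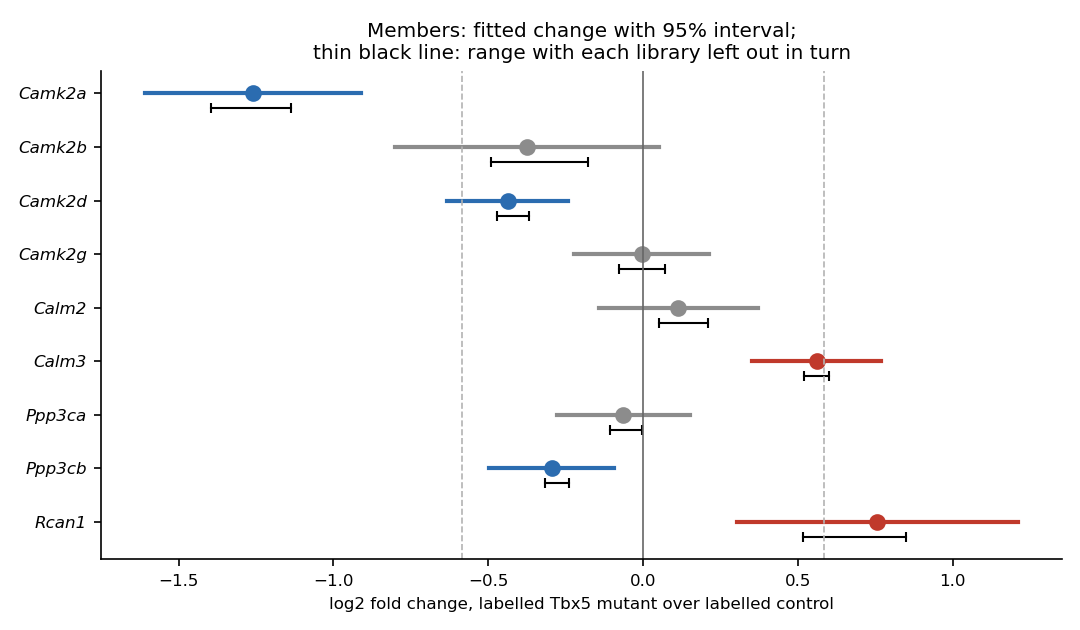
Change of each member between the labelled groups. The horizontal axis is the log2 fold change of mice labelled Tbx5 mutant over control, points and thick lines are edgeR's estimate with its 95% interval (coloured where the adjusted p is under 0.05), thin black lines span the values with each of the 10 libraries left out in turn, and dashed lines mark a fold of 1.5. Camk2a lies at -1.26 beyond the dashed line over its whole interval, and Camk2g lies at 0. Rcan1 lies at 0.76 with an interval from 0.30 to 1.21 that spans the dashed line. Its estimate goes under that line with 1 library left out.

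The 4 Camk2 genes together summed to 310 to 408 CPM in the control mice and to 257 to 298 CPM in the Tbx5 mutant group, and the groups did not overlap. Within the family, by counts per kilobase, Camk2d held 63.1% ± 2.48 of the control total and 59.3% ± 1.39 of the mutant total (SD, n = 4 and n = 6). The share of Camk2g went from 25.4% to 28.1% in the control mice and from 32.0% to 36.6% in the mice labelled Tbx5 mutant, so the groups were apart although the level of Camk2g itself was not. The share of Camk2a was 6.19% to 8.98% in the control mice and 3.46% to 5.07% in the Tbx5 mutant group. Read as a ratio of counts within each library, which no library scaling can move, there were 3.20 to 3.88 Camk2d counts for each Camk2g count in the control mice and 2.33 to 2.83 in the Tbx5 mutant group. These shares are a description and were not tested, and shares of 1 family must move against each other.

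**Figure D3:**
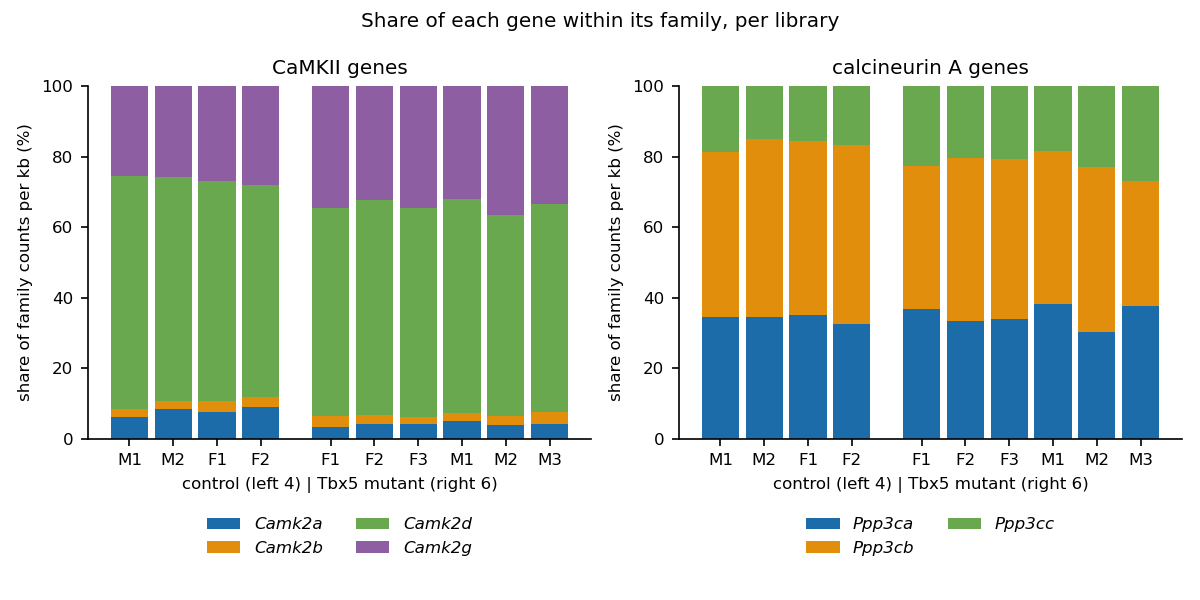
Share of each gene in its family in every library. The vertical axes give percent of the family's counts per kilobase of the longest transcript, bars are libraries (4 control at left, 6 labelled Tbx5 mutant at right), and colours are genes. The Camk2g segment is 25.4% to 28.1% in the control mice and 32.0% to 36.6% in the Tbx5 mutant group, and the Ppp3cc segment 15.0% to 18.7% and 18.4% to 26.8%.

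Calcineurin A alpha and A beta are the catalytic subunits of calcineurin in the heart. Ppp3ca (ENSMUSG00000028161.17, chromosome 3, 136670124 to 136937727, forward strand), which encodes A alpha, was at 65.9 to 72.5 CPM in the control mice and at 53.8 to 78.5 CPM in the mice labelled Tbx5 mutant. The mutant mice lay on both sides, with 3 below and 2 above all control mice. Its log2 fold change was -0.063 ± 0.10 SE (adjusted p = 0.661, edgeR), with a 95% interval from -0.28 to 0.15.

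Ppp3cb (ENSMUSG00000021816.11, chromosome 14, 20499364 to 20546573, reverse strand), which encodes A beta, was at 75.2 CPM in control M1, 85.1 CPM in M2, 78.9 CPM in F1 and 83.1 CPM in F2. The mice labelled Tbx5 mutant had a lowest value of 51.1 CPM, a median of 67.6 CPM and a highest value of 72.0 CPM. All 6 lay below all 4 control mice. Ppp3cb fell from 80.5 ± 4.42 CPM (SD, n = 4) to 65.4 ± 7.42 CPM (SD, n = 6), to 81.5% of the control level, with a log2 fold change of -0.30 ± 0.094 SE and an adjusted p of 0.0288 by edgeR. The fall did not reach the fold of 1.5, and its adjusted p was not firm: without control M2, F1 or F2 the adjusted p was 0.0867, 0.0542 or 0.0743, and after removal of the trend on GC content it was 0.130. The lowest value was that of mutant M3, the library rich in Rn45s, and without it the log2 fold change was -0.24 with an adjusted p of 0.0334.

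The window before the Ppp3cb start is shown as that of the calcineurin subunit that fell. It held 1 AGGTGT on the opposite strand, at 235 bases before the start, and 3 GGAAA, all on the opposite strand, at 223, 186 and 82 bases before the start. GENCODE M21 places no exon in it.
Ppp3cb, chr14:20546574-20546823 (reverse strand): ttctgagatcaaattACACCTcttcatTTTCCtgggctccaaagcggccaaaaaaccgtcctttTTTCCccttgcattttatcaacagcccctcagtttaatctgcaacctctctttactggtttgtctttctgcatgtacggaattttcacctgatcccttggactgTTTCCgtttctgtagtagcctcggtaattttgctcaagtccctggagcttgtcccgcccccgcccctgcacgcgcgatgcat

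Ppp3cc, the third catalytic subunit, known best from testis, rose from 17.5 ± 1.53 CPM (SD, n = 4) to 21.7 ± 2.16 CPM (SD, n = 6), with a log2 fold change of 0.30 ± 0.11 SE (adjusted p = 0.0438, edgeR). Ppp3r1, the regulatory B subunit, was at 65.8 to 81.9 CPM and 61.4 to 80.7 CPM and did not pass (log2 fold change -0.10 ± 0.094 SE, adjusted p = 0.446, edgeR). The 3 catalytic subunits together summed to 164 to 174 CPM in the control mice and to 142 to 170 CPM in the Tbx5 mutant group, and these ranges overlapped. By counts per kilobase Ppp3cb held 46.8% to 50.9% of the catalytic subunits in the control mice and 35.6% to 46.7% in the Tbx5 mutant group, while Ppp3ca held 32.5% to 35.2% and 30.2% to 38.1%.

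Rcan1 (ENSMUSG00000022951.16, chromosome 16, 92391953 to 92470867, reverse strand), the inhibitor of calcineurin, was at 64.0 CPM in control M1, 52.8 CPM in M2, 65.3 CPM in F1 and 58.0 CPM in F2. The mice labelled Tbx5 mutant had a lowest value of 73.5 CPM, a median of 88.6 CPM and a highest value of 181 CPM. Every mouse labelled Tbx5 mutant lay above every control mouse, and 5 of the 6 were between 73.5 and 92.1 CPM. Rcan1 rose from 60.0 ± 5.75 CPM (SD, n = 4) to 101 ± 39.4 CPM (SD, n = 6), a 1.69-fold change with a log2 fold change of 0.76 ± 0.21 SE and an adjusted p of 0.0152 by edgeR. The size of the rise rested on mutant M2: without it the log2 fold change was 0.52, under the fold of 1.5, while the adjusted p was 0.00183. Between mice labelled male alone, which include mutant M2, Rcan1 did not pass (log2 fold change 1.04, adjusted p = 0.0621, edgeR, 2 control mice against 3). Mutant M2 also had the highest summed level of adipocyte markers, 20.8 CPM against at most 4.13 CPM in the other 9 libraries, and the highest sums of leukocyte markers, 782 CPM, and red cell markers, 589.7 CPM. Its sum of cardiomyocyte markers, 61032 CPM, was the lowest of all libraries, and its sum of fibroblast markers, 12061 CPM, the highest. The part of these markers in the high Rcan1 value was not tested.

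Rcan1 has alternative first exons, and the transcripts from the downstream start are the ones known to be driven by calcineurin and NFAT. The deposited count adds all transcripts of the gene, so which start the added reads came from is not known here. Both windows are shown for that reason. The window of the upstream start held none of the 3 motifs. The window of the downstream start held 3 GGAAA, at 227, 193 and 163 bases before the start, 1 AGGTGT at 181 bases and 1 TGACGTCA at 175 bases, which begins on the base after the end of AGGTGT. GENCODE M21 places no exon in either window, and both lie inside the gene by its bounds there.
Rcan1 upstream start, chr16:92466170-92466419 (reverse strand): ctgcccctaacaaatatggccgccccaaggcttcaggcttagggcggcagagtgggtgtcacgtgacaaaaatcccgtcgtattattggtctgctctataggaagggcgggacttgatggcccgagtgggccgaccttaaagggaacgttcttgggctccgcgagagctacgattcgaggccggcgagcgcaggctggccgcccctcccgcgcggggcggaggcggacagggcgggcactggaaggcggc
Rcan1 downstream start, chr16:92400079-92400328 (reverse strand): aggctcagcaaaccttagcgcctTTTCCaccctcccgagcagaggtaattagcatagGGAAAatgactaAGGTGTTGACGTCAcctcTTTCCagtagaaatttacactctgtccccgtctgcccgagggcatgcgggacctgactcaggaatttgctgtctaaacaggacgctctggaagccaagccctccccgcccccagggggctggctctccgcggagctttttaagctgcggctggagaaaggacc

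Rcan2, a relative of Rcan1 which also encodes a calcineurin inhibitor, was at 348 to 424 CPM in the control mice and at 289 to 340 CPM in the mice labelled Tbx5 mutant. The ranges did not overlap, but the log2 fold change of -0.24 ± 0.090 SE did not pass (adjusted p = 0.0614, edgeR). Rcan3 was at 26.4 to 30.4 CPM and 28.2 to 33.8 CPM, with a log2 fold change of 0.11 ± 0.090 SE (adjusted p = 0.352, edgeR).

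Ordered by level per kilobase, Calm2 and Calm3 stood first in the control mice, followed by Camk2d at 45.2 ± 4.76, Rcan1 at 25.8 ± 2.48, Ppp3cb at 21.03 ± 1.153, Camk2g at 19.1 ± 3.20, Ppp3ca at 14.6 ± 0.569, Camk2a at 5.63 ± 1.32 and Camk2b at 1.93 ± 0.602 CPM per kb (SD, n = 4). Of these neighbours, Calm2 and Calm3, and Ppp3cb and Camk2g, had overlapping ranges. In the mice labelled Tbx5 mutant Rcan1, at 43.6 ± 17.0 CPM per kb, had the higher mean than Camk2d, at 33.4 ± 2.33 CPM per kb (SD, n = 6), and their ranges overlapped. Camk2a was at 2.35 ± 0.394 and Camk2b at 1.502 ± 0.225 CPM per kb there, with no overlap.

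Beyond the 9 genes, 57 genes of the same pathway were listed in 7 groups, and 47 of them had counts enough to be tested. Of the 47, 17 fell and 8 rose, and 22 did not pass, beside 15.0% and 16.3% of all genes tested. By the rule with the fold of 1.5, 8 of the 47 were called lower and 3 higher, beside 7.16% and 8.50% of all genes tested. Their median log2 fold change was -0.12, against -0.0050 for all genes tested. No group of the lists was tested against all genes. Genes of the lists that are named below although the rule for named genes leaves them out (Camk1, Camkk2, Pcp4l1, Cacnb2, Cacna1c, Nrgn, Gsk3b, Hdac4 and Hdac5) were chosen after their values were seen.

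Several channels and regulators of the heart cell membrane are substrates of CaMKII. Ryr2, the calcium release channel of the sarcoplasmic reticulum, fell from 5319 ± 564 CPM to 1698 ± 468 CPM, with a log2 fold change of -1.65 (adjusted p = 3.0e-05, edgeR). Pln, phospholamban, the brake on the calcium pump, rose from 1636 ± 149.8 CPM to 3154 ± 471 CPM, with a log2 fold change of 0.95 (adjusted p = 0.000232, edgeR). Cacnb2, an accessory subunit of the L-type calcium channel, fell by 0.35 on the log2 scale, and Cacna1c, its pore subunit, did not pass (log2 fold change 0.26, adjusted p = 0.0859, edgeR).

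Among the 12 tested of the other calmodulin-dependent kinases, 2 fell, 3 rose and 7 did not pass, beside 15.0% lower and 16.3% higher of all genes tested. Camk1d, a CaMKI kinase, fell from 141 ± 10.1 CPM (SD, n = 4) to 44.5 ± 4.89 CPM (SD, n = 6), with a log2 fold change of -1.66 ± 0.094 SE (adjusted p = 4.7e-08, edgeR). Camk1g, of the same subfamily, fell from 6.70 ± 1.02 CPM to 2.58 ± 1.08 CPM (log2 fold change -1.32, adjusted p = 0.00181, edgeR), at counts of 3 to 56. Camk1 and Camkk2, the kinase that activates CaMKI, rose by less, with log2 fold changes of 0.45 and 0.48. Mylk, the myosin light chain kinase of smooth muscle, rose with a log2 fold change of 0.61 (adjusted p = 0.00895, edgeR). The summed smooth muscle markers were at 194 to 252 CPM in the control mice and at 259 to 666 CPM in the mice labelled Tbx5 mutant. Of the 5 tested, 2 rose, Acta2 and Tagln, and 3 did not pass, Myh11, Cnn1 and Smtn. The part of these markers in the rise of Mylk was not tested.

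Of the proteins that bind or restrain calmodulin and CaMKII, Camk2n1, an inhibitor of CaMKII, fell from 33.3 ± 5.29 CPM (SD, n = 4) to 24.2 ± 4.09 CPM (SD, n = 6), with a log2 fold change of -0.47 ± 0.13 SE (adjusted p = 0.0175, edgeR). Its groups overlapped, with 5 of 6 mice labelled Tbx5 mutant below all control mice. Of the small calmodulin-binding proteins, Pcp4l1 fell by 0.32 on the log2 scale (adjusted p = 0.0441, edgeR), and Nrgn had a log2 fold change of -0.039 that did not pass (adjusted p = 0.942, edgeR).

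Among the 10 tested of the other calcineurin subunits and regulators, 1 fell, 3 rose and 6 did not pass, beside the same 15.0% and 16.3% of all genes. Akap5, which anchors calcineurin at the membrane, fell from 2.42 ± 0.192 CPM (SD, n = 4) to 1.04 ± 0.438 CPM (SD, n = 6), with a log2 fold change of -1.15 (adjusted p = 0.00901, edgeR), on 2 to 19 counts per library. Cib1, a calcium-binding protein that holds calcineurin at the sarcolemma, rose from 5.89 ± 0.199 CPM to 9.81 ± 1.18 CPM (log2 fold change 0.74, adjusted p = 0.00135, edgeR). Myoz2, a Z-disc protein that binds calcineurin, rose from 495 ± 61.0 CPM to 656 ± 66.6 CPM (log2 fold change 0.40, adjusted p = 0.0153, edgeR).

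Among NFAT factors and NFAT kinases, 5 of 9 tested fell and none rose, beside 15.0% lower and 16.3% higher of all genes tested. The other 4 did not pass. The median log2 fold change of the 9 was -0.31, against -0.0050 for all genes. At an unadjusted p under 0.05 the edgeR counts were the same, 0 higher and 5 lower, and DESeq2 gave 0 higher and 3 lower at its adjusted p. Nfatc1 had a log2 fold change of -0.43 (adjusted p = 0.0445, edgeR), Nfatc3 of -0.31 (adjusted p = 0.0197, edgeR) and Nfatc4 of -0.47 (adjusted p = 0.0331, edgeR), while Nfatc2 was at -0.031 (adjusted p = 0.911, edgeR). Nfatc3 was at 45.4 to 52.0 CPM in the control mice and at 33.9 to 44.0 CPM in the mice labelled Tbx5 mutant, with no overlap. Nfatc1 was at 20.50 to 40.79 CPM and 20.53 to 25.82 CPM, so all its mutant values lay inside the control range. Its two-sided exact permutation test gave p = 0.0762. Nfatc4 was at 7.84 to 10.57 CPM and 4.94 to 7.93 CPM, with overlap, on 26 to 64 counts per library. The other 2 that fell were the kinases Dyrk2, with a log2 fold change of -0.62 (adjusted p = 0.00331, edgeR), and Gsk3b, at -0.32. Downstream of CaMKII, 4 of the 7 tested class IIa histone deacetylases and MEF2 factors fell, none rose and 3 did not pass, beside the same 15.0% and 16.3% of all genes, and their median log2 fold change was -0.43. At an unadjusted p under 0.05 edgeR gave 0 higher and 5 lower, and DESeq2 0 higher and 4 lower at its adjusted p. Mef2a fell from 147 ± 23.3 CPM to 90.0 ± 9.81 CPM (log2 fold change -0.70, adjusted p = 0.000415, edgeR) and Mef2d from 37.3 ± 1.83 CPM to 23.5 ± 2.37 CPM (log2 fold change -0.66, adjusted p = 0.000203, edgeR), and Hdac4 and Hdac5, which repress MEF2 until CaMKII exports them from the nucleus, were at -0.43 and -0.47.

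**Figure D4:**
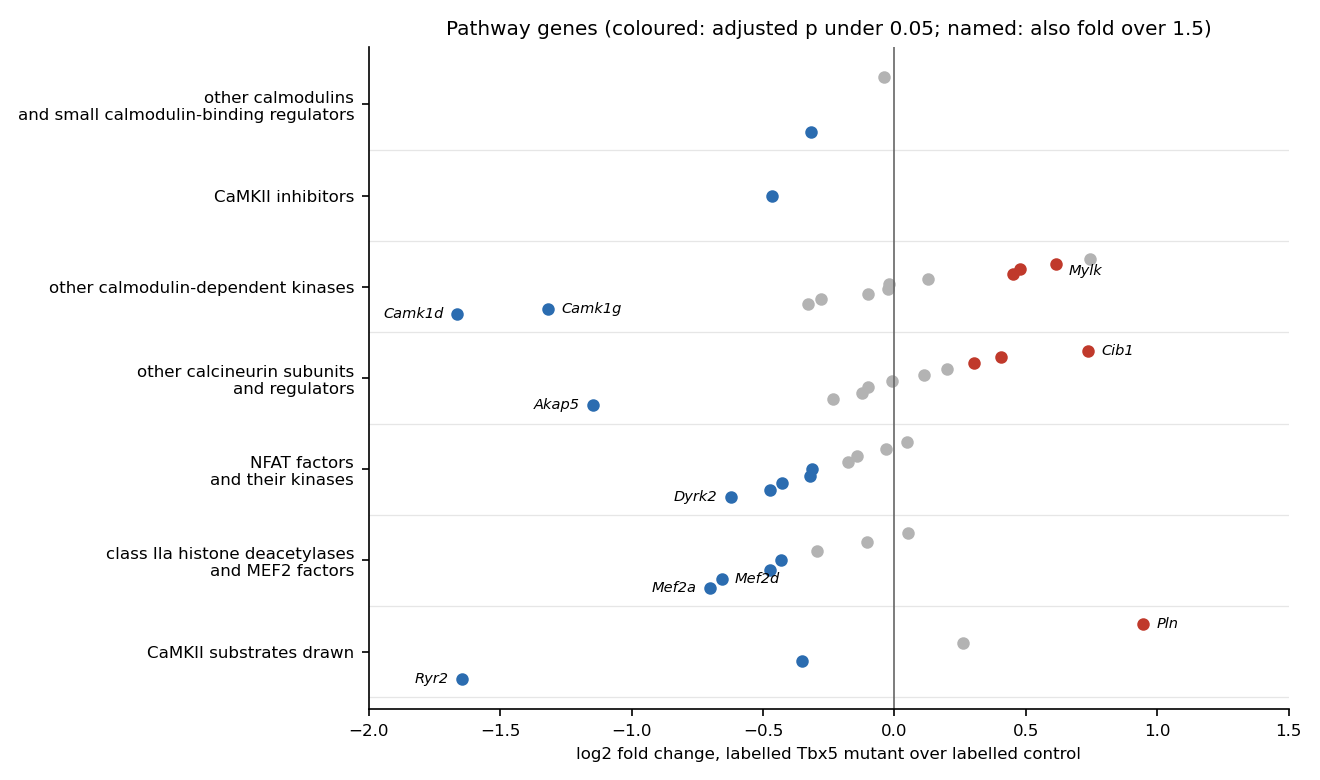
Change of 45 of the 47 tested pathway genes by group. The horizontal axis is the log2 fold change of mice labelled Tbx5 mutant over control, each point is 1 gene, blue and red points fell or rose at an adjusted p under 0.05, grey points did not pass, and names are given where the fold was also over 1.5. The points of the NFAT group and of the histone deacetylase and MEF2 group lie mostly left of 0, from Mef2a at -0.70 upward, and Camk1d at -1.66 and Ryr2 at -1.65 lie farthest left.

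Some measures moved with the labelled groups over all genes and so touch each of these values. Long transcripts tended to be lower in the mice labelled Tbx5 mutant (Spearman's rho of -0.31 between log2 fold change and transcript length across genes, which are not independent replicates). With that trend removed, Camk2a was at -1.17, Camk2d at -0.32, Ppp3cb at -0.28 and Calm3 at 0.45 on the log2 scale, each with an adjusted p under 0.05. Calm2, with the shortest transcript of the 9 at 1205 bases, then went from 0.11 to -0.12, and Ppp3ca from -0.063 to 0.017, neither of which passed. Cell markers were another such measure. The 8 cardiomyocyte markers summed to 71088 to 84843 CPM and 61032 to 74406 CPM, with overlap, and held Tnnt2 and Actc1 higher and Myl7, Myl4, Nppa and Sln lower. Leukocyte markers summed to 322 to 529.8 CPM in the control mice and 532 to 782 CPM in the mice labelled Tbx5 mutant, and 4 of 5 tested rose. The sums of fibroblast markers overlapped, at 8798 to 10655 CPM and 8564 to 12061 CPM, but of the 8 tested 3 rose, the collagens Col1a1, Col1a2 and Col3a1, 2 fell, Pdgfra and Gsn, and 3 did not pass. Red cell markers, at 84.4 to 191 CPM and 111 to 589.7 CPM, overlapped in their sums as well, and both of the 2 tested rose. Endothelial markers overlapped, at 1054 to 1510 CPM and 1223 to 1504 CPM, and of the 6 tested 1 rose and 5 did not pass. Of 8 skeletal muscle markers, Ckm, which heart muscle also uses, made up nearly all of 699 to 1173 CPM and 1238 to 1637 CPM, and the fast myosins Myh1, Myh2 and Myh4 were under 0.6 CPM in every library. The part of cell makeup in the values of the 9 genes was not tested.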

How the data were processed

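The authors sequenced right atrial RNA from single mice as short single-end reads and deposited 1 table of 23337 genes. Per the labels its reads were processed with FastQC, TopHat2 2.0.11, featureCounts and DESeq2 on the mouse build mm10, without a stated order, strand setting or annotation. The deposited table holds raw counts per gene, which are whole numbers, and the authors' normalized signal, which is each count divided by a size factor of its library. It also holds the authors' own comparison, a mean signal, a log2 fold change with its error and test score, a fold ratio and a p-value and adjusted p-value, and these columns were not used. The labels name a polyadenylated library kit and also ribosomal RNA depletion.

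Counts were analysed in R 4.3.3 with edgeR 4.0.16 (filterByExpr, TMM scaling, glmQLFit and glmQLFTest with a prior count of 0.125, no covariates), and p-values were adjusted by Benjamini-Hochberg over 13084 genes. "Rose" and "fell" mean an adjusted p under 0.05, and a called gene also had a fold over 1.5 and a mean control signal over 1. SE is the size of the log2 fold change divided by the square root of F. CPM used TMM-scaled libraries, and levels between genes were divided by the longest GENCODE M21 transcript. Exact permutation tests used the 210 splits of the mice. Libraries held 5703775 to 7095141 counts, so that 3 counts are 4.2e-05% to 5.3e-05% of a library, and intervals cover counting and mouse-to-mouse error only as far as the fit holds it. No pair of libraries agreed within sampling noise. The same scripts were tested on simulated data. The 9 genes, the pathway and marker lists and the tests were chosen with earlier results of these data known. Named genes were the 9, Tbx5, fixed pathway genes and every pathway gene called, and some genes of the lists are not reported here by name. Of 119 listed pathway and marker genes 1 was not matched in the table. The alternatives were other prior counts, filters, scalings, DESeq2 1.42.0, limma 3.58.1 with a trend, labelled sex as a covariate or alone, a replicate block, each library left out, trends on transcript length or GC content removed by lowess, and stricter thresholds.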

Additional observations from a re-analysis of the deposited data

Results flagged for a closer look

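Each of 64 sets of values, those of 32 named genes in either group, was checked for a mouse far from the others of its group, and 2 were found, where chance gives about 1 in 20 sets, or 3.2 here. Rcan1 was at 180.7 CPM in mutant M2 on 1243 counts, against 73.5 to 92.1 CPM in the other 5 mice labelled Tbx5 mutant, and the gap took 0.826 of the range of the group. Without that mouse Rcan1 still rose, but by less than the fold of 1.5. Ppp3cb was at 51.09 CPM in mutant M3 on 188 counts, against 64.9 to 72.0 CPM in the other 5, with a gap of 0.657 of the range. Mutant M3 is the library with 38.9% of its counts from Rn45s and 3484550 counts outside that gene.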

How the results depend on the processing

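Of 224 values of the 9 log2 fold changes under 25 other fits, 192 stayed on the same side of 0 and of the adjusted p threshold of 0.05, 11 stayed on the same side of 0 only and 21 changed sign, all of the latter in genes that did not pass. Camk2g was positive with a mean count of at least 50 (0.010), upper-quartile scaling (0.028), the authors' size factors (0.0027), counts without Rn45s (0.0013), labelled sex as a covariate (0.0054), the replicate block (0.039), male labels alone (0.23), the length trend removed (0.0041), the replicate block with it (0.047), DESeq2 (0.0030) and limma (0.0092), and ran from -0.077 to 0.072 with each library left out. Camk2b was at 0.052 with male labels alone. With the length trend removed Calm2 was at -0.12 and Ppp3ca at 0.017, and with the replicate block as well at -0.088 and 0.0081. The replicate numbers do not mark shared animals, and mice with the same number did not deviate together (correlations of -0.047 to 0.036 over 4 pairs). With the replicate block Ppp3cb had an adjusted p of 0.0842, and no other member changed its side. Members called higher, 1 here (Rcan1), were 2 with upper-quartile scaling, 1 with male labels alone, where it was Calm3 in place of Rcan1, and 0 with female labels alone, an adjusted p under 0.01 or a fold over 2, although 2 members were higher at an unadjusted p under 0.05 in edgeR with female labels alone and in DESeq2 over all mice. They went from 0 to 2 with each library left out. Members lower at the adjusted p, 3 here, were 1 with male labels alone and 1 with the replicate block and length trend removed, and members higher, 2 here, were 1 with male labels alone and 1 at an adjusted p under 0.01. Pathway genes lower, 17 here, were 8 with male labels, 9 with female labels, 11 with the replicate block and length trend removed and 9 at an adjusted p under 0.01, and those higher, 8 here, were 3, 5, 6 and 5. With each library left out, pathway genes lower ran from 12 to 17 and those higher from 7 to 8. With a mean count of at least 50, pathway genes lower were 12. Mice of 1 labelled sex are 2 against 3, and labelled sex goes against sex-linked reads in the controls. All genes called, 2049 here, were 1297 with a mean count of at least 50, where 9983 genes were tested, and 906 with a fold over 2. Other causes were not tested. Camk2b rests on 27 to 71 counts per library, and whether depth sets the width of its interval was not tested.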

Other observations

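Over the 10 libraries, deviations of log2 CPM from the group means gave 36 correlations between pairs of the 9 genes, from -0.81 to 0.73 with a median of 0.12, as a description with no test. The pairs with the highest values were Camk2a with Camk2d (Pearson's r = 0.73), Camk2d with Camk2g (0.72) and Calm3 with Rcan1 (0.71), and the lowest was Camk2d with Calm2 (-0.81). All points share their library, its scaling and its depth. Mutant M2 had the highest value of all libraries in both Calm3, at 252 CPM, and Rcan1, at 181 CPM. Control M1 and M2 were lower in Camk2d and Camk2g and higher in Calm2 than control F1 and F2. The part of these mice in the correlations was not tested. Among the other 13083 genes tested, the one most alike was Klhl30 for Camk2a (0.93), Plxnb1 for Camk2d (0.96), Ier3ip1 for Calm3 (0.97), Prdm11 for Ppp3cb (0.97) and Tmem183a for Rcan1 (0.93), each the top of 13083 values over 10 libraries.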
